A study of Mus musculus with 2 samples.

Results

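The enzymes of amino acid metabolism described here were 38 mouse genes chosen by name, and each was taken from the probe sets that carried its symbol and no other in the platform annotation. Of 18193 genes with such a probe set, 35 were among the 38, with 53 probe sets between them, while Pycr1, Amt and Mat2a had none. The 2 samples were islet grafts taken 6 hours after transplantation, each on 1 array. The recipient was a normoglycemic male wild type C57BL/6 mouse in the first sample and a hyperglycemic male heterozygous Akita mouse in the second, and each received 50 islets of wild type C57BL/6 origin below the capsule of the left kidney. The Akita allele is a missense mutation of Ins2 that the recipient carried and the donor islets did not, so that blood glucose and recipient genotype cannot be told apart. The age of these recipients is not in the labels, neither recipient is labelled as treated with insulin, and it is not given whether a sample was 1 graft or a pool.

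Enzymes of amino acid metabolism move nitrogen between amino acids, feed carbon skeletons into the citric acid cycle and supply creatine, polyamines and methyl groups. In the kidney, the proximal tubule is the main site of several of these reactions, among them the synthesis of guanidinoacetate, the breakdown of D-amino acids and the conversion of citrulline into arginine. Beta cells use glutamate dehydrogenase and the aminotransferases in amino acid stimulated insulin secretion.

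Both samples carried islet and kidney RNA. The signal of Ins2, an insulin gene, was 68738 with the normoglycemic and 88302 with the hyperglycemic recipient, and that of the proximal tubule gene Kap was 89517 and 128500. The signals are MAS5 values on a linear scale, and genes are called measured where 1 or both signals were no lower than the array median, which was 82.9 (normoglycemic) and 91.5 (hyperglycemic). All differences below are the signal of the hyperglycemic over that of the normoglycemic mouse. The ratio of 3' to 5' control probe sets for Actb, a sign of RNA quality, was 3.54 and 3.99, and that for Gapdh was 1.3 and 1.76. With 1 array per condition no difference could be tested, and the values describe these 2 arrays. In such bulk samples, fewer cells of a type and less RNA per cell cannot be told apart.

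Signals of the enzymes were similar in the 2 grafts. All 35 had both signals above the array medians, the lowest being 174 in the normoglycemic and 173 in the hyperglycemic mouse. Only Gpt, which encodes the cytosolic alanine aminotransferase, was over 2-fold higher in the hyperglycemic mouse, against 3.53% of all 10816 genes with both signals above the medians (7.56% of the 12538 measured genes). Prodh2, which encodes an oxidase of hydroxyproline, was the 1 gene over 2-fold lower, against 1.89% of those genes (5.54% of the measured genes). These shares are near the background. Over 1.5-fold higher were 2 enzymes, Gpt and Hpd (against 9.18% of genes above both medians and 13.7% of measured genes), and over 1.5-fold lower were 2, Prodh2 and Ivd (against 10.2% and 14.4%). The other 31 differed by no more than 1.5-fold (88.6%, against 80.7% of genes above both medians). The median log2 ratio was -0.03, beside -0.06 for all measured genes, and the median size of the log2 ratio was 0.23, beside 0.28 for genes above both medians. These background genes were not matched to the enzymes by signal, and the spread of ratios is wider at lower signals.

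The number of enzymes with the higher signal depended on the scaling, though more were lower than higher under each one. In the signals as deposited, 13 enzymes were higher and 22 lower (37.1% higher, against 44.5% of genes above both medians). Quantile normalization gave the same 13 and 22 (37.1% against 44%). Centring each array on its median, which lowered all log2 ratios by 0.14, gave 10 and 25 (28.6% against 31.5%), loess gave 14 and 21 (40% against 46.5%), centring on proximal tubule markers gave 16 and 19 (45.7% against 46.2%), and centring on beta cell markers, whose median log2 ratio was 0.36, gave 4 and 31 (11.4% against 16.9%).

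Genes with several probe sets gave a measure of technical spread within the arrays, which is not a replicate error. It was narrower at higher signals, with 1 SD of the log2 ratio at 0.33 at the signal level of Gpt and Prodh2 and 0.22 at that of Hpd and Ivd. Of the 35 enzymes, 19 were within 1 such SD of equal signals at their own signal level. The share of all genes within 1 SD was not computed. Gpt and Hpd were over 2 SD higher, against 7% of genes above both medians. Over 2 SD lower were 7 of the 35 enzymes (Asl, Cbs, Got2, Ivd, Mccc1, Odc1 and Prodh2), beside 8.63% of genes above both medians. Those background genes were not matched to the enzymes by signal, and 2 SD is a smaller fold difference at higher signals. The larger share among the enzymes is therefore not read as a result about them. The enzyme values are those of the probe set used for each gene, and for Mccc1 and Odc1 another probe set had the opposite direction.

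**Figure D1:**
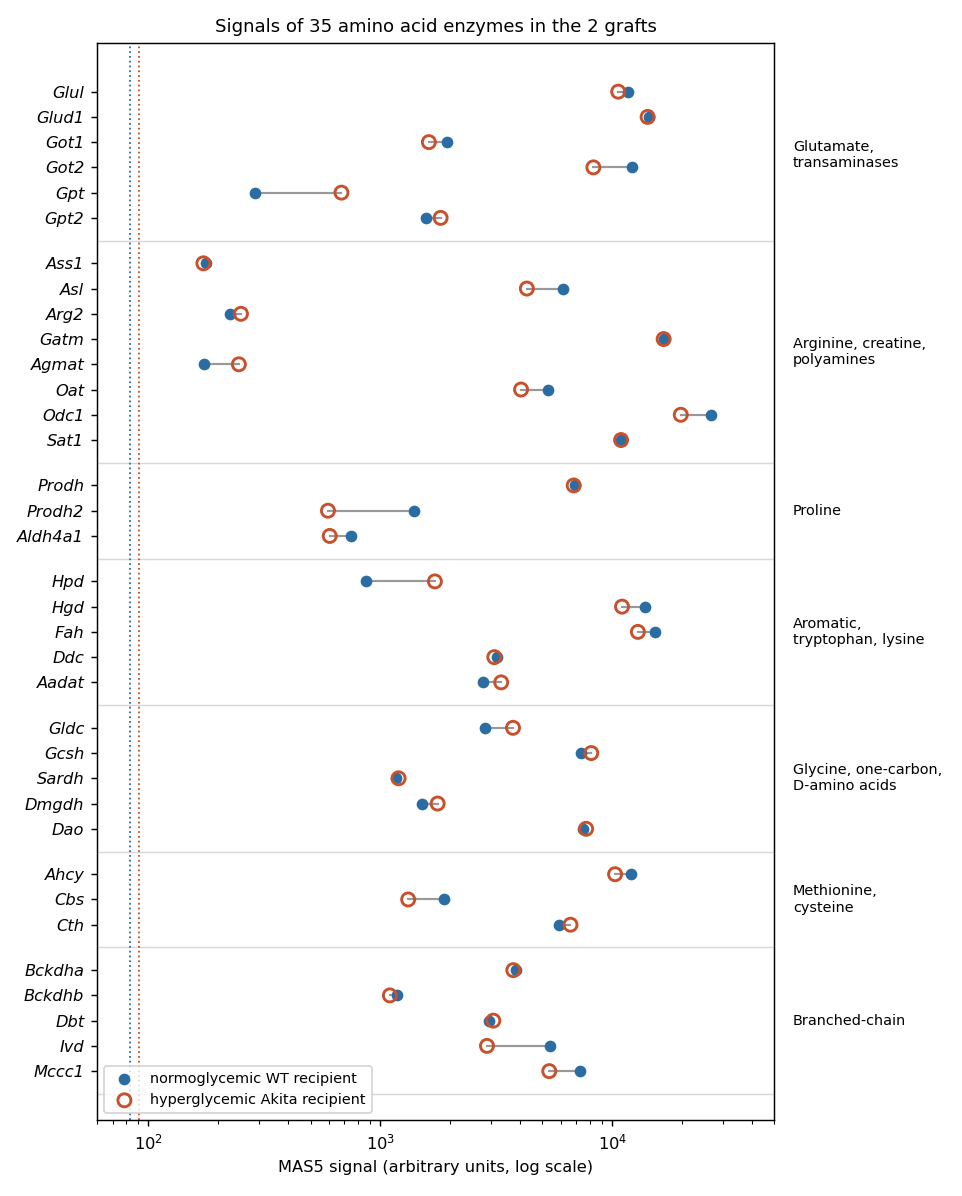
MAS5 signal of each of the 35 enzymes (x axis, log scale, arbitrary units) for the normoglycemic (filled blue) and the hyperglycemic recipient (open orange), grouped by pathway, with the array medians as dotted lines. All points lie to the right of the medians, and the widest gaps are those of Gpt (289 and 680), Prodh2 (1395 and 594), Hpd (869 and 1718) and Ivd (5368 and 2882). Signals of different probe sets are on different scales and are not compared with each other.

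Enzymes of glutamate and the transaminases comprised 6 genes, with a median log2 ratio of -0.08, and 5 of them differed by no more than 1.5-fold. Gpt, which interconverts alanine and pyruvate in the cytosol, had a signal of 289 in the normoglycemic and 680 in the hyperglycemic mouse, 2.36-fold higher. Its technical spread was 0.33 on the log2 scale at this level, against a log2 ratio of 1.24. This value rested on 1 probe set, of a kind that can bind several transcripts, and the other Gpt probe set was below the medians on both arrays (38.9 and 22.0). The mitochondrial paralog Gpt2 had signals of 1577 and 1819 (1.15-fold), and its 4 probe sets lay between 1.08-fold and 1.24-fold higher. On the probe sets used, the 2 alanine aminotransferases both had the higher signal in the hyperglycemic mouse, by unequal amounts. The difference of Gpt2 was within the technical spread of 0.22 at its signal level. With centring on beta cell markers its log2 ratio was -0.16.

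The aspartate aminotransferases had the lower signal in the hyperglycemic mouse. Got1, the cytosolic form, had signals of 1944 and 1619. Got2, the mitochondrial form of the malate-aspartate shuttle, had 12172 and 8288, which is 1.47-fold lower, whereas its next probe set was 1.18-fold lower. Glud1, which encodes glutamate dehydrogenase, differed little (14326 and 14200), and its other probe set gave 14310 and 13081. Glul, glutamine synthetase, had signals of 11734 and 10605. None of these 4 genes reached a 1.5-fold difference.

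Genes of arginine, creatine and polyamine metabolism numbered 8, all within 1.5-fold, with a median log2 ratio of -0.02. Gatm, which makes guanidinoacetate, the precursor of creatine, had equal signals, 16698 in the normoglycemic and 16650 in the hyperglycemic mouse. Sat1, which acetylates spermidine and spermine for breakdown, was likewise at 10949 and 10909. Odc1, ornithine decarboxylase, which starts polyamine synthesis, had 26540 and 19734 (1.34-fold lower). Its 2 other probe sets pointed in different directions, 1.52-fold lower and 1.11-fold higher, so that no direction is given for Odc1.

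Asl, which releases arginine from argininosuccinate, had a signal of 6147 in the normoglycemic and 4282 in the hyperglycemic mouse, 1.44-fold lower. Oat, which links ornithine to glutamate and proline, had 5275 and 4042 (1.31-fold lower). Both rested on a single probe set. The enzyme before Asl, Ass1, was measured by a dim probe set only (177 and 173), because another one also carries the symbol Gm5424 and was left out by the rule on names. Arg2, the mitochondrial arginase, had 225 and 251, and Agmat, which hydrolyses agmatine, 174 and 245, both within the technical spread of 0.61 (log2) at their signal level.

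Proline and hydroxyproline catabolism held the member with the lowest ratio. Prodh2 had a signal of 1395 in the normoglycemic and 594 in the hyperglycemic mouse, 2.35-fold lower, on its 1 probe set. Prodh, the paralog that oxidizes proline itself, differed little (6904 and 6819). Aldh4a1, which acts after both of them and forms glutamate in the proline route, had 748 and 605, within the technical spread. The log2 ratios of the 3 measured genes were -1.23, -0.02 and -0.31.

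The sequences before the starts of Prodh2, Prodh and Hpd are shown because Prodh2 and Hpd were among the members with the widest gaps and Prodh is the paralog that differed little. Each is the 250 bases upstream of the RefSeq start, 5' to 3' on the strand of the gene, from RefSeq on GRCm38.p6, and capitals mark a match to a core of the motif of HNF1, a factor of kidney tubule, liver and islet. The motif searched for is the reverse complement of the letters in capitals, with any base allowed at the seventh position. The regions are chr7:30493408-30493657 (+) for Prodh2, chr16:18089191-18089440 (-) for Prodh and chr5:123182724-123182973 (-) for Hpd.
Prodh2: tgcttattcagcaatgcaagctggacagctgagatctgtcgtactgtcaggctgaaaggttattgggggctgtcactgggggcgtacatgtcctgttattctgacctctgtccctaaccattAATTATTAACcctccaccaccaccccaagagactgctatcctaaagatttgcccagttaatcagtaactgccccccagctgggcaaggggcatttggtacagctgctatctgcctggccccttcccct
Prodh: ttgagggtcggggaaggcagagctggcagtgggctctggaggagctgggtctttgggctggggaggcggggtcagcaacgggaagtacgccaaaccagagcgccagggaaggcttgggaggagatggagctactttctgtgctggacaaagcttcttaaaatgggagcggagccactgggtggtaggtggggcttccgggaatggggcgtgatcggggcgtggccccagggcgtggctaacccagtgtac
Hpd: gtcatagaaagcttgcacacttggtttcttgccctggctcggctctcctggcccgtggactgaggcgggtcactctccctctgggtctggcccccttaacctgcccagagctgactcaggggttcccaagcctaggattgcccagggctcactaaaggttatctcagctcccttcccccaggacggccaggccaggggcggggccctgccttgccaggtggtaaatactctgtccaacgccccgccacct
The match in Prodh2 was on the opposite strand and began at position -128, and Prodh and Hpd held none. It was found in 1 of the 33 members with such a sequence and in 0.44% of all 27025 genes. The promoters table held no entry for Gpt. The HNF1 motif was 1 of several searched and the only one marked in capitals. Unmarked in Prodh2 are matches to CCAAT at position -189 and to TTGCNNAA at -244, both on the opposite strand.

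Matches to other motifs were counted in the same way. On both strands of the same window, TGATGNAA, a core of the amino acid response element bound by ATF4, was found for 2 members, Got1 and Pycr1 (6.06%, against 3.91% of all genes). The E-box CACGTG was found for Ass1, Cbs and Dao (9.09% against 6.86%). For CAAAGTCCA, a motif of HNF4, there was 1 member, Aadat (3.03% against 0.451%), and CAAAGNNCA, which includes it, had 3 (9.09% against 6.29%). TTGCNNAA and the C/EBP palindrome TTGCGCAA, which it includes, were found for 4 and 0 members (12.1% and 0%, against 10.8% and 0.185%), TATAAA for 4 (12.1% against 14.3%), TGACGTCA for 0 (against 1.77%), CCAAT for 19 (57.6% against 37.5%) and CGCG for 12 (36.4% against 36.3%). A match in these letters is a description and does not show binding.

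Tyrosine breakdown runs through Hpd, Hgd and Fah in this order, and the first of these differed from the others. Hpd, hydroxyphenylpyruvate dioxygenase, had a signal of 869 in the normoglycemic and 1718 in the hyperglycemic mouse, 1.98-fold higher (log2 ratio 0.98, technical spread 0.22). Hgd, homogentisate dioxygenase, had 13836 and 11014 (1.26-fold lower). Fah, which splits fumarylacetoacetate at the end of the pathway, had 15299 and 12893 (1.19-fold lower). The ratio of Hpd was just under the 2-fold limit and passed it with quantile normalization, loess or centring on proximal tubule markers. A further Hgd probe set was 8.21-fold higher, but its signal was only 14.1 in the normoglycemic and 116 in the hyperglycemic mouse.

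Ddc, the decarboxylase that forms dopamine and serotonin, had signals of 3175 and 3100. Aadat, an aminotransferase of kynurenine and of the lysine pathway, had 2762 and 3319 (log2 ratio 0.26). With Hpd, Hgd and Fah they gave a median log2 ratio of -0.03.

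On the probe sets used, the 5 measured genes of glycine, sarcosine and D-amino acid breakdown had the higher signal in the hyperglycemic mouse, each by no more than 1.5-fold (median log2 ratio 0.14), but Sardh was on the lower side on its other probe set. With each array centred on its median, 3 of the 5 remained higher (Dmgdh, Gcsh and Gldc), and with centring on beta cell markers 1 (Gldc). Gldc, the decarboxylase of the glycine cleavage system, had signals of 2838 and 3731 (1.31-fold higher), and Gcsh, its hydrogen carrier, 7350 and 8115. Dmgdh and Sardh, which strip methyl groups from dimethylglycine and sarcosine, had 1516 and 1766, and 1167 and 1198. Dao, the peroxisomal oxidase of D-amino acids, was at 7496 and 7712. The other Sardh probe set gave 1102 and 1097, so that no direction is given for Sardh. Only the difference of Gldc exceeded 1 technical SD.

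Methionine and cysteine metabolism was represented by 3 genes. Ahcy, which hydrolyses adenosylhomocysteine, had a signal of 12046 in the normoglycemic and 10281 in the hyperglycemic mouse. Cbs, which starts the transfer of sulfur from homocysteine to cysteine, had 1875 and 1318 (1.42-fold lower). On its dimmer probe set Cbs had 557 and 235, 2.37-fold lower. Cth, the next enzyme of this route, had the higher signal in the hyperglycemic mouse, 5877 and 6603 (1.12-fold). Cbs and Cth thus differed in opposite directions, Cth within the technical spread of 0.20.

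Breakdown of branched-chain amino acids differed little at its committed step. The subunits of the branched-chain keto acid dehydrogenase, Bckdha (3844 and 3743), Bckdhb (1176 and 1099) and Dbt (2927 and 3069), had log2 ratios from -0.10 to 0.07. Ivd, the next dehydrogenase in leucine breakdown, had 5368 in the normoglycemic and 2882 in the hyperglycemic mouse, 1.86-fold lower. Its other probe set gave only 1.21-fold lower (2941 and 2422). Mccc1, a subunit of methylcrotonyl-CoA carboxylase, which acts after Ivd, had 7235 and 5349 (1.35-fold lower), whereas its dimmer probe set gave 433 and 554, 1.28-fold higher. No direction is therefore given for Mccc1.

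**Figure D2:**
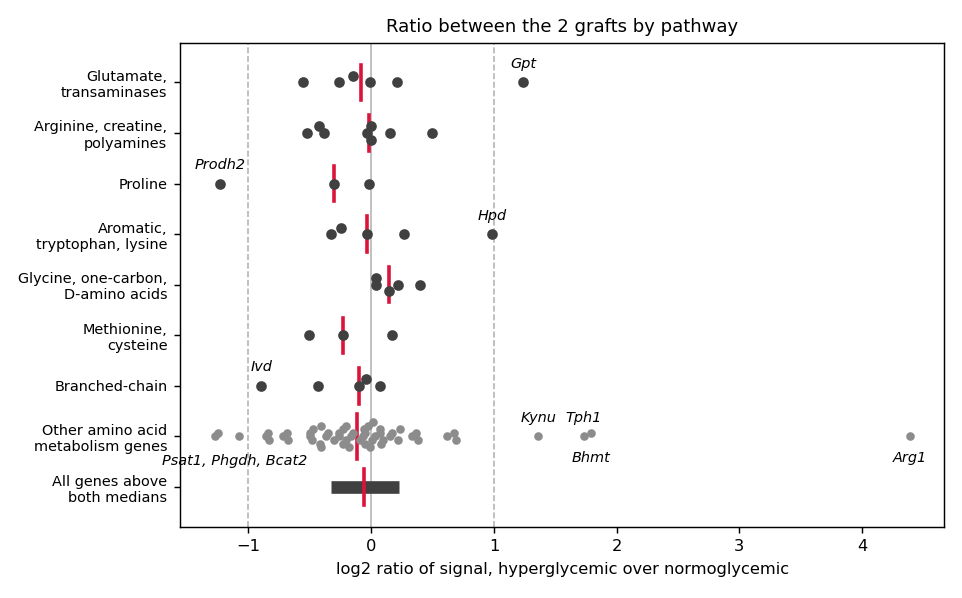
Log2 ratio of the signal in the hyperglycemic over the normoglycemic mouse (x axis) for each measured gene, by pathway (y axis), with medians as red bars and 2-fold limits as dashed lines. The bottom bar spans the middle 50% of the 10816 genes above both medians. Of the 35 enzymes, Gpt and Prodh2 lie outside the limits, and among the other genes of amino acid metabolism Arg1 lies farthest to the right (4.39).

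Several probe sets per gene were available for 13 of the 35 enzymes. Of their 18 further probe sets, 13 (of 10 genes) had both signals above the medians. In 10 of these 13 the ratio had the same direction as on the probe set used, and in 3 it was over 1.5-fold apart. The 3 were those of Cbs, Ivd and Mccc1 named above.

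**Figure D3:**
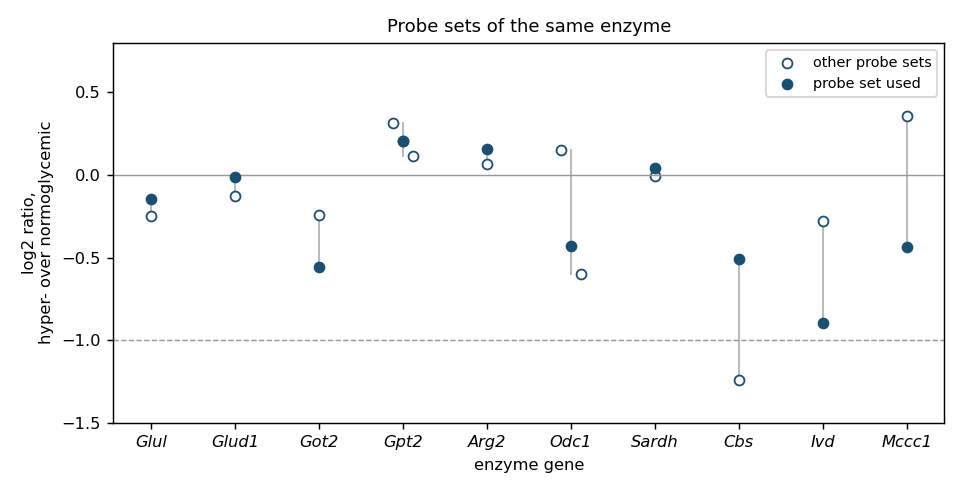
Log2 ratio of the hyperglycemic over the normoglycemic mouse (y axis) for the probe set used (filled) and the other probe sets with both signals above the medians (open), for the 10 enzymes with such probe sets (x axis). The dashed line marks 2-fold lower. Glul, Glud1, Gpt2, Arg2 and Sardh lie close together (1 open point of Gpt2 is covered by the filled one), and Cbs, Ivd and Mccc1 are over 1.5-fold apart.

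By the compartment in which the enzymes are known to act, most mitochondrial and most cytosolic members differed little. Among 20 measured mitochondrial enzymes, 18 differed by no more than 1.5-fold, 9 were higher and 11 lower, and the median log2 ratio was -0.01. Among 14 cytosolic enzymes, 12 differed by no more than 1.5-fold, 3 were higher and 11 lower, and the median was -0.19. Of all genes with both signals above the array medians, 80.7% differed by no more than 1.5-fold and 44.5% were higher. These counts are from the signals as deposited, and the numbers of higher and lower enzymes depend on the scaling. Median centring would shift the medians of both compartments by the same amount, and no test of the difference is possible here.

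Cell type markers are given beside these values because the enzymes are made by several cell types of the graft sample. All 15 proximal tubule markers were within 1.5-fold, 7 of them higher and 8 lower, with a median log2 ratio of -0.02 and a summed signal of 493669 in the normoglycemic and 537985 in the hyperglycemic mouse. Acsm2, a fatty acid activating enzyme, was at 66753 and 95683, and Miox, which oxidizes inositol, at 48075 and 32407. All 10 measured markers of other nephron segments had the lower signal in the hyperglycemic mouse (median log2 ratio -0.58, summed signals 59215 and 44757), such as Calb1, a calcium-binding protein, at 20458 and 19842 and Umod, uromodulin, at 21901 and 14747. Of 9 measured beta cell markers 5 had the higher and 4 the lower signal, with a median log2 ratio of 0.36 and summed signals of 139226 and 185079. Iapp, islet amyloid polypeptide, was at 47116 and 74018, and Slc2a2, a glucose transporter, at 19283 and 16912. Of 11 acinar cell markers with a probe set, 4 were measured, and their summed signals of 18476 and 15105 were mostly those of Cela1, an elastase (18162 and 14625), with Cela3b higher (124 and 288) and Prss2, a trypsinogen, lower (141 and 88.5). All 9 measured endothelial markers had the lower signal (median log2 ratio -0.78, summed signals 4988 and 3343), such as Flt1 and Ptprb, receptors of the endothelium, at 1047 and 915 and at 766 and 410. The part of these cell types in the values of Gpt, Hpd, Prodh2 and Ivd was not tested.

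Among 79 other genes of amino acid metabolism, listed by pathway, most differed little. Of these, 68 had a probe set and 56 were measured, and their median log2 ratio was -0.12. Of the 56, 4 were over 2-fold higher (against 7.56% of all measured genes) and 3 over 2-fold lower (against 5.54%), while 40 differed by no more than 1.5-fold (71.4%, against 71.9% of all measured genes). On the probe sets used, the genes of this list with the highest mean signals, Glyat, Oaz1, Qdpr and Aldh6a1, differed by no more than 1.26-fold. Another Qdpr probe set gave 9304 and 6103 (1.52-fold lower). The further Glyat probe sets gave 14288 and 14513, and 1636 and 1281 (1.28-fold lower).

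Arg1, the cytosolic arginase, which turns arginine into ornithine and urea and is well known from macrophages, had a signal of 1289 in the normoglycemic and 26962 in the hyperglycemic mouse, 20.9-fold higher. This compares with 1.11-fold for Arg2 and with signals of Odc1, the enzyme that uses the ornithine, that differed by no more than 1.52-fold on any probe set. Kynu, kynureninase, had 181 and 464 (2.57-fold higher). The 13 measured macrophage markers were all higher as well, 12 of them over 2-fold, with summed signals of 11418 and 90752. Lyz2, lysozyme, had 5539 and 55987, and Cd14, a receptor component for lipopolysaccharide, 1624 and 10468. The part of macrophages in the values of Arg1 and Kynu was not tested. Nos2, which makes nitric oxide from the same arginine, was below the medians in both grafts (53.9 and 4.72).

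Genes of the choline and betaine route that leads to Dmgdh differed in both directions. Chdh, which oxidizes choline at its start, had 7550 in the normoglycemic and 6125 in the hyperglycemic mouse (1.23-fold lower). Bhmt, which passes a methyl group from betaine to homocysteine, had a signal of 560 in the normoglycemic and 1941 in the hyperglycemic mouse, 3.46-fold higher. Bhmt2, its paralog, had 2474 and 3943 (1.59-fold higher). The sequences of the paralogs are related, and how far a probe set of one can bind the other was not tested. Srm, spermidine synthase, with 821 and 1327 (1.62-fold), and Pccb, a subunit of propionyl-CoA carboxylase, with 1512 and 2319 (1.53-fold), followed. The signal of Tph1, which starts serotonin synthesis, was 34.0 and 113, at least 1.36-fold higher with the low signal raised to the median.

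Serine synthesis genes lay at the other end. Psat1, phosphoserine aminotransferase, had a signal of 2381 in the normoglycemic and 984 in the hyperglycemic mouse, 2.42-fold lower, and 3.27-fold lower on its other probe set. Phgdh, which catalyses the first step, had 1536 and 647, 2.37-fold lower, with 1.80-fold and 1.72-fold lower on the next 2 probe sets and 362 and 367 on the dimmest. All these probe sets of Psat1 and Phgdh are of kinds that can bind several transcripts. Leaving such probe sets out removes Psat1, Phgdh and Bcat2 altogether. The 0 other pathway genes over 2-fold lower under that choice is therefore no check of these genes. Psph, the last enzyme of the route, had 1355 and 1295. Shmt1, which converts serine into glycine in the cytosol, was 1.78-fold lower (1406 and 788), whereas the mitochondrial Shmt2 had 2234 and 2152.

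Further genes with lower signals were Pycrl, which reduces pyrroline carboxylate to proline (939 and 517, 1.82-fold), Suox, sulfite oxidase (1874 and 1047, 1.79-fold), and Agxt2, a mitochondrial aminotransferase of the kidney (3301 and 2008, 1.64-fold). The signal of Bcat2, the branched-chain aminotransferase, was 116 and 54.9, at least 1.27-fold lower with the low signal raised to the median. Asns, asparagine synthetase, had nearly equal signals on the probe set used (1001 and 996), whereas its dimmer probe set gave 302 and 401, 1.33-fold higher.

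**Figure D4:**
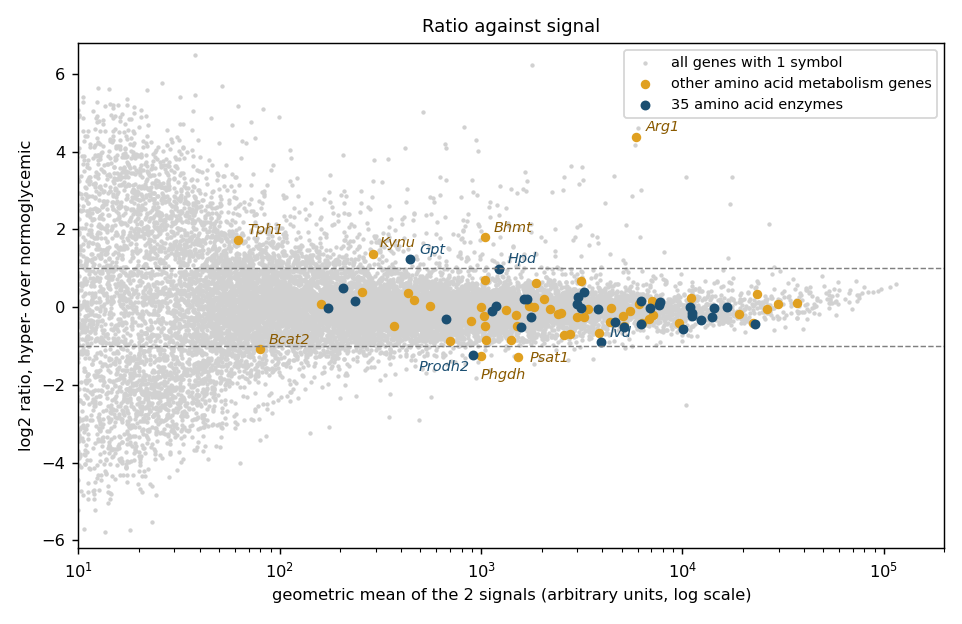
Log2 ratio of the hyperglycemic over the normoglycemic mouse (y axis) against the geometric mean of both signals (x axis, log scale, arbitrary units, from 10 upward) for all genes (grey), the 35 enzymes (blue) and the other measured genes of amino acid metabolism (yellow), with 2-fold limits as dashed lines. The scatter of all genes widens at low signals. The enzymes lie along 0 apart from Gpt, Hpd, Prodh2 and Ivd, and Arg1 stands at 4.39.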

How the data were processed

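RNA of 1 islet graft sample per condition was hybridized to 1 MOE430 2.0 array each. The authors deposited a table of linear signal intensities with 45101 probe sets, 64 of which were controls, made with MAS5 per the submitters' processing notes, with no version or settings given in the sources used here. The number of arrays limits the precision. The 38 genes and all other lists were chosen with earlier results of these data known. In the platform annotation, which gave the gene names, 34945 probe sets carried 1 symbol, 932 several and 9160 none, and the gene identifiers of all 35 enzymes were found in RefSeq (GRCm38.p6). The table names no genome build. Where a gene had several probe sets, the brightest one by mean log2 over both arrays was used, and signals were not scaled further.

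Named in the text were all 38 genes, the 6 highest and 6 lowest ratios among the other pathway genes with both signals above the array medians, every measured one over 2-fold, the 4 with the highest signal and 2 markers per cell type; Psph, Shmt2, Asns, Nos2, Chdh, Prss2, Slc2a2 and Miox were added after their values were seen. Technical spread was the SD of the difference in log2 ratio between the 2 brightest probe sets of a gene, divided by the square root of 2, in bands of signal. The code that counts ratios past a limit was checked on simulated signals, and no difference between the grafts was tested. Alternatives were 5 scalings (loess span 0.3, 3 iterations), signals raised to the 25th, 50th or 75th percentile, the array median added, 2 filters, 3 choices of probe set and limits of 1.5-fold and 5-fold. Python 3.11.15, numpy 2.4.6, pandas 2.3.3, statsmodels 0.14.6 and matplotlib 3.10.9 were used.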

Additional observations from a re-analysis of the deposited data

How the results depend on the processing

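No alternative turned the direction of Gpt or Prodh2 where it gave a value. The 1 enzyme over 2-fold higher became 2 with quantile normalization, loess, centring on proximal tubule markers and a limit of 1.5-fold, and 0 with centring on beta cell markers, signals raised to the 75th percentile, a limit of 5-fold, and with _x_, _s_ and _a_ probe sets left out, where Gpt had no measured and Prodh2 no probe set. The 1 enzyme over 2-fold lower became 2 with median centring, centring on beta cell markers and a limit of 1.5-fold, and 0 with those probe sets left out and with 5-fold. Taking the median of all probe sets, the log2 ratio of Gpt was 0.21 and that of Hgd 1.35, each averaging in a probe set with a signal below the median, and the aromatic group had a median of 0.26. Centring on beta cell markers, which subtracts 0.36 from every log2 ratio, moved the median of the enzymes to -0.40 and those of the groups to -0.44 (glutamate), -0.38 (arginine), -0.67 (proline), -0.40 (aromatic), -0.22 (glycine), -0.59 (methionine and cysteine) and -0.46 (branched-chain). For the other pathway genes it gave a median of -0.48 and 9 over 2-fold lower. Their 4 over 2-fold higher became 2 with signals raised to the 75th percentile and 7 with no filter. Their 3 lower became 7 with no filter and 0 with those probe sets left out. In the last case Psat1, Phgdh and Bcat2 had no probe set left, so that the 0 is no check of them. Of 483 values of single enzymes under the 14 alternatives, 443 stayed within 1 technical SD of the value reported and 40 moved by more. Of the differences over 2-fold, which were those of Gpt and Prodh2 only, 0 reversed. Smaller differences did change sign. Hgd went from -0.33 to 1.35 with the median of all probe sets. With centring on beta cell markers, Gpt2, Arg2, Aadat, Gcsh, Sardh, Dmgdh, Dao, Cth and Dbt turned from higher to lower. No paired analysis was possible because there was 1 sample per condition, and no replicate could be left out.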

Other observations

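Aminoacyl-tRNA synthetases, which load amino acids onto their tRNAs, were listed after the values above had been seen. Of 20 cytosolic synthetases, 18 had a probe set and all 18 were measured. Their median log2 ratio was -0.14, and 16 were within 1.5-fold. Qars, the glutaminyl-tRNA synthetase, had the lowest ratio, with a signal of 6981 in the normoglycemic and 3594 in the hyperglycemic mouse (log2 ratio -0.96), but of its 2 other probe sets above the medians 1 was lower (1041 and 683) and 1 higher (2936 and 3208), so that no direction is given for it. Hars had the highest ratio, with 1917 and 2390 (0.32). The 18 had both signals above the medians, and 80.7% of all such genes were within 1.5-fold. Of 17 mitochondrial synthetases 16 were measured, likewise with both signals above the medians, all within 1.5-fold, with a median of -0.32 and 12 of the 16 on the lower side. Of the 18 cytosolic synthetases 13 were on the lower side, and of all 10816 genes above both medians 5999 were. No member of either list was over 2-fold apart between the grafts, against 3.53% of genes above both medians over 2-fold higher and 1.89% over 2-fold lower.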
